A study of Mus musculus with 17 samples.

Results

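The genes described here are 10 transcription factor genes known for their part in the identity of thalamic neurons, *Gbx2*, *Lhx2*, *Lhx9*, *Prox1*, *Nr2f1*, *Nr2f2*, *Rorb*, *Foxp1*, *Foxp2*, and *Etv1*, measured in astrocytes. They were chosen by symbol, with earlier results of these data known, as 10 of the 26556 genes with counts. All 10 passed edgeR's filter on low counts, which kept 17856 genes for testing. The study asked whether astrocytes of a brain region carry gene expression that is particular to that region. It purified the astrocytes of postnatal day 7 (P7) *Gfap::GFP* mice on an FVB/N-Tg background, in which GFP driven by *Gfap* regulatory sequence labels astrocytes, by fluorescence-activated cell sorting (FACS). The 17 RNA-seq libraries comprised 4 from the cortex (primary somatosensory area), 5 from the dorsolateral geniculate nucleus (dLG), 4 from the ventral posteromedial nucleus (VPM), and 4 from the ventromedial geniculate nucleus (MGv), the visual, somatosensory, and auditory relay nuclei of the thalamus. Each library was made from the tissue of 4 pooled brains, and all groups carry the same reporter and no other allele or treatment. The p values measure the spread between such pools. For the thalamus as a whole, they also take in the differences between its nuclei.

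In the embryo, homeobox genes such as *Gbx2*, *Lhx2*, and *Lhx9* are switched on in the cells that form the thalamus and direct their differentiation and the growth of their axons to the cortex. The nuclear receptor genes *Nr2f1* and *Nr2f2* are known for setting up area identity in the forebrain. The forkhead genes *Foxp1* and *Foxp2* act in projection neurons. Several of the genes also act in the cortex itself, *Lhx2* in cortical progenitors and *Rorb*, a nuclear receptor gene, in the neurons of the cortical layer that receives thalamic axons. Astrocytes arise from the same progenitor zones as neurons.

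Sequence at the starts of these genes bears on how their counts can be read, since antisense genes begin there. The 250 bases before the annotated start of *Gbx2* lie entirely within exons of the antisense gene *D130058E05Rik*. Those before an annotated start of *Nr2f2* lie entirely within exons of the antisense gene *B130024G19Rik*. A window of *Lhx2*, the member with the highest cortical level, overlaps no annotated exon and is shown for comparison. Another window of *Lhx2*, before a start further downstream, lies entirely within exons of *Lhx2* itself. The windows are from RefSeq (GRCm38.p6), read 5′ to 3′ on the strand of each gene, chr1:89931177-89931426 (minus) for *Gbx2*, chr7:70366747-70366996 (minus) for *Nr2f2*, and chr2:38339031-38339280 (plus) for *Lhx2*, with each CpG in capitals.
Gbx2: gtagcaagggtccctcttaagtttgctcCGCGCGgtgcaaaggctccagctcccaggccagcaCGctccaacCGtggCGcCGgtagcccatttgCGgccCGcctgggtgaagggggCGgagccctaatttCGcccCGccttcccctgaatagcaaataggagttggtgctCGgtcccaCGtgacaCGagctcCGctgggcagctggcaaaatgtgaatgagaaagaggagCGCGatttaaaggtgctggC
Nr2f2: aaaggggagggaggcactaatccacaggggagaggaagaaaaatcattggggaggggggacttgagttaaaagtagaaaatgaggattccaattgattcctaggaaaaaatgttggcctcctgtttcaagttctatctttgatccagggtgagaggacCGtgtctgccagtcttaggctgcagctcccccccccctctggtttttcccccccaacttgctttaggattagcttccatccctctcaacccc
Lhx2: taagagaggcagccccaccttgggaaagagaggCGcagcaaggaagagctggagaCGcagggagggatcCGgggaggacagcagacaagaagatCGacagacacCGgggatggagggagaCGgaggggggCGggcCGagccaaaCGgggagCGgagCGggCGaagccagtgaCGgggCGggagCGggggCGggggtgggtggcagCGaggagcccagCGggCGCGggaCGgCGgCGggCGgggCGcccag
The window of *Gbx2* holds 18 CpG and has a GC content of 61.6%, and that of *Nr2f2* 1 CpG and 50%. The window of *Lhx2* shown here holds 25 CpG and 72.8%, and the other window of *Lhx2* 24 CpG and 68.4%. The median over all 32851 windows was 6 CpG and 52.4%. *Nr2f2* has 6 annotated transcripts, and the sequence before any other start of it was not examined. RefSeq windows of 300 bases, which add 50 bases after the start, were found for 9 of the 10 genes (16 windows). Of 4 motifs searched on both strands, none of which contains another, TAATTA (homeodomain core, in 5.29% of all windows), AGGTCA (nuclear receptor site, in 16.3%), GTAAACA (forkhead site, in 3.65%), and CCGGAAG (ETS core, in 8.86%), at least 1 occurred in 2 of the 16 windows, and in none of the windows of *Gbx2*, *Lhx2*, and *Nr2f2* shown above.

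Related genes can share reads where their sequences are identical over the 50 bases of a read. The longest stretch shared by the coding sequences of *Nr2f1* (chr13:78198284-78198342, minus strand) and *Nr2f2* (chr7:70360052-70360110, minus strand) is 59 bases long and is shown because it is the only such stretch, among the 3 pairs compared, that exceeds the read length.
Nr2f1 and Nr2f2: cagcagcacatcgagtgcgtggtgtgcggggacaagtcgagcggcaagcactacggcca
For *Foxp1* and *Foxp2* the longest shared stretch is 35 bases, and for *Lhx2* and *Lhx9* it is 17 bases. The share of 50-base windows of a gene's transcripts that also occur in another gene was 9.08% for *Etv1*, whose related sequences include the pseudogene *Gm5454*, and at most 0.431% (*Nr2f2*) for the others. Another gene overlaps 43.5% of the exonic length of *Gbx2* and 7.46% of that of *Nr2f2*, both on the opposite strand, and at most 3.16% (*Foxp1*) for the rest. The sources used here do not state whether reads were counted by strand, so *Gbx2* and *D130058E05Rik* cannot be fully told apart.

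The libraries held between 18213687 and 50366363 counts, with the highest total in cortex replicate a, and 3 counts were worth from 0.0596 to 0.165 CPM (counts scaled to library size with edgeR's TMM factors). These floors cover counting error only. Genes with counts numbered 17749 in dLG replicate c and 21052 to 23365 in the other libraries. The summed level of 8 astrocyte markers, all detected, ranged from 5716 to 14905 CPM over the libraries. That of 7 oligodendrocyte lineage markers ranged from 6119 to 11113 CPM, and that of 10 neuron markers, none of them at 0 in a group, from 819 to 2158 CPM. In the cortex, the astrocyte sum was 12253 to 13126 CPM and the oligodendrocyte lineage sum 6625 to 8012 CPM. In the thalamus, these sums averaged 8171 ± 2204 and 8083 ± 1388 CPM (SD of 13 libraries). The part of this in the differences between thalamus and cortex was not tested. *Gfap*, whose regulatory sequence drives the reporter, was at 494 ± 45.0 CPM in the cortex (SD of 4 libraries), 534 ± 566 CPM in the dLG (SD of 5 libraries), 12.3 ± 4.76 CPM in the VPM (SD of 4 libraries), and 1862 ± 2492 CPM in the MGv (SD of 4 libraries). It was therefore lowest in the VPM and varied widely within the dLG and MGv. Microglia markers summed to at most 84.0 CPM, ependymal markers to at most 67.9 CPM, and endothelial and mural markers to at most 64.6 CPM. In bulk libraries, fewer cells that express a gene and less RNA of it per cell cannot be told apart.

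Between thalamic and cortical astrocytes, 4 of the 10 genes were higher in the thalamus and 3 were higher in the cortex at a Benjamini-Hochberg (BH) adjusted p under 0.1, the threshold of the study (edgeR's quasi-likelihood test over all 17856 genes). *Gbx2*, *Lhx9*, *Prox1*, and *Nr2f2* were the higher ones, and *Lhx2*, *Foxp1*, and *Rorb* were the lower ones, while *Nr2f1*, *Foxp2*, and *Etv1* did not pass. With DESeq2, *Nr2f1* was also higher in the thalamus (adjusted p = 0.0754). Of all genes tested with edgeR, 5.45% were higher in the thalamus and 5.93% were lower. The median log2 fold change (log2FC) was 0.82 over the 10 genes and 0.02 over all genes. Thalamus here means the 13 libraries of the 3 nuclei as a group, so differences between the nuclei count in its spread. Each nucleus is compared in turn below.

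**Figure D1:**
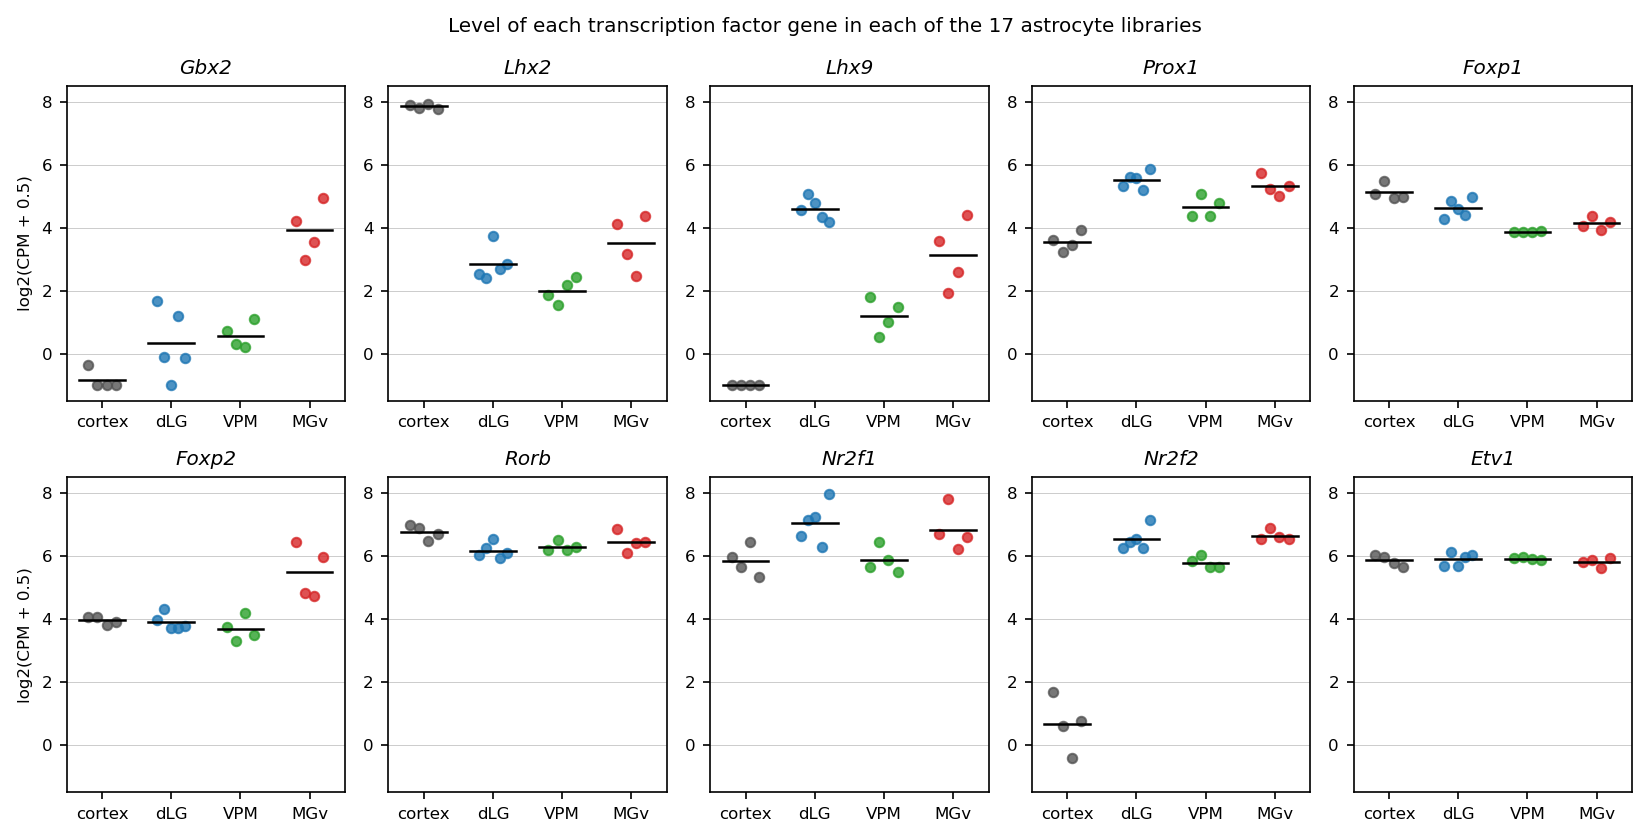
Level of each of the 10 genes as log2(CPM + 0.5), with a point for each of the 17 libraries and a line at the group mean of the log2 values, for the cortex (4 libraries), dLG (5), VPM (4), and MGv (4). *Lhx2* is high in the 4 cortical libraries and *Lhx9* is at 0 counts in them, *Gbx2* and *Foxp2* reach their highest points in the MGv, and *Etv1* is level across the groups.

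*Gbx2*, a homeobox gene needed for the differentiation of thalamic neurons (chromosome 1, 89927956 to 89931179, GRCm38), was mainly detected in the MGv. Its level there was 18.2, 7.30, 11.1, and 30.1 CPM in replicates a to d. In the VPM it was 1.15, 0.72, 0.65, and 1.63 CPM, and in the dLG it was 2.71, 0.43, 0, 1.79, and 0.40 CPM in replicates a to e. Every MGv library was above every library of the other groups, and the dLG and VPM overlapped. In the cortex, 13 counts (0.28 CPM) were found in replicate a and none in the other 3 libraries. The MGv mean of 16.7 ± 10.04 CPM (SD of 4 libraries) compared with 1.07 ± 1.14 CPM in the dLG (SD of 5 libraries), a difference that passed the test with a log2FC of -3.96 for dLG over MGv (SE 0.84, adjusted p = 0.0277, edgeR). The log2FC of MGv over VPM was 4.00 (SE 0.92, adjusted p = 0.0136, edgeR), and dLG and VPM, at 1.07 and 1.04 CPM, did not differ beyond their spread (log2FC 0.04, 95% interval -1.58 to 1.66). Against the cortex, the log2FC was 5.85 for the thalamus as a whole (SE 1.69, adjusted p = 0.0372, edgeR), 7.33 for the MGv, 3.37 for the dLG, and 3.33 for the VPM, all past the threshold. These values rest on the 13 cortical counts of 1 library: without cortex replicate a, the cortex is at 0, and without any of the other 3 cortical libraries the adjusted p of the thalamus is between 0.105 and 0.127 (edgeR). The VPM also no longer passed against the cortex without any 1 of those 3 or without VPM replicate a or d (adjusted p of 0.126 to 0.173, edgeR), and the dLG no longer passed against the MGv without MGv replicate d (log2FC -3.51, adjusted p = 0.142, edgeR). The antisense gene *D130058E05Rik* was at 2.06 ± 1.00 CPM in the MGv (SD of 4 libraries), 1.58 ± 1.35 CPM in the dLG (SD of 5 libraries), 1.04 ± 0.41 CPM in the VPM (SD of 4 libraries), and 0.23 ± 0.18 CPM in the cortex (SD of 4 libraries), so that in the dLG and VPM it reached the level of *Gbx2* itself.

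*Lhx2* and *Lhx9*, which encode closely related LIM-homeodomain proteins, had opposite patterns. *Lhx2*, a selector gene of cortical progenitors that also acts in thalamic neurons (chromosome 2, 38339281 to 38369733), was at 237, 224, 245, and 219 CPM in cortical replicates a to d. The level was 5.29, 4.78, 12.9, 5.92, and 6.71 CPM in the dLG and 3.10, 2.40, 4.00, and 4.93 CPM in the VPM. In the MGv it was 16.7, 8.54, 4.98, and 20.3 CPM. The lowest cortical library was above the highest thalamic library, and the cortical libraries lay close to each other, with a coefficient of variation of 5.12%. The log2FC of thalamus over cortex was -4.90 (SE 0.37, adjusted p = 2.5e-08, edgeR), and it was -5.02 for the dLG, -6.00 for the VPM, and -4.19 for the MGv. Within the thalamus, MGv was above VPM (log2FC 1.81, SE 0.37, adjusted p = 0.00697, edgeR), with no overlap between their libraries. The dLG passed against the VPM by a small margin (log2FC 0.98, adjusted p = 0.0983, edgeR), and also with DESeq2. The call was lost without any 1 of 10 libraries, 4 of the cortex, 4 of the VPM, and dLG replicates c and e (adjusted p of 0.10005 to 0.253, edgeR). It was also lost in the fit of the nuclei alone (adjusted p = 0.166, edgeR) and with the replicate letter as a block (0.140). The same held with the library number series, described below, as a covariate (0.270) and within the largest series (log2FC 0.21, 0.895). The log2FC was 0.65 without dLG replicate c, which held 12.9 CPM and had counts for fewer genes than any other library. dLG and MGv did not pass (log2FC -0.83, 95% interval -1.48 to -0.18, adjusted p = 0.548, edgeR).

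*Lhx9* (chromosome 1, 138825186 to 138848577), expressed by developing thalamic neurons, had no count in any of the 4 cortical libraries, although these held up to 50366363 counts. In the dLG its level was 23.4, 32.9, 27.2, 19.9, and 17.5 CPM. In the MGv it was 11.4, 3.31, 5.51, and 20.7 CPM, and in the VPM it was 2.96, 0.95, 1.501, and 2.32 CPM. Every dLG and MGv library was above every VPM library, and the dLG and MGv overlapped. Against the cortical floor of 3 counts per library, dLG levels were at least 163-fold higher, MGv levels at least 68.9-fold higher, and VPM levels at least 13.0-fold higher, and all 3 differences passed the test (adjusted p = 2.9e-07, 1.8e-06, and 6.8e-05, edgeR). For the thalamus as a whole it was at least 87.8-fold higher (adjusted p = 0.000696, edgeR). The log2FC was 3.64 for dLG over VPM (SE 0.50, adjusted p = 0.000988, edgeR) and 2.40 for MGv over VPM (SE 0.49, adjusted p = 0.00883, edgeR). The difference between the dLG and the MGv did not pass (log2FC 1.24, 95% interval 0.37 to 2.10, adjusted p = 0.407, edgeR), and without MGv replicate d it did (log2FC 1.84, adjusted p = 0.0908).

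*Prox1*, a homeobox gene that promotes cell cycle exit and differentiation (chromosome 1, 190118035 to 190170714), was higher in each nucleus than in the cortex. The cortical libraries were at 11.7, 8.80, 10.4, and 14.7 CPM, and those of the VPM were at 20.01, 33.3, 20.2, and 27.1 CPM. The dLG libraries were at 39.1, 48.8, 46.8, 36.0, and 57.9 CPM and the MGv libraries at 52.9, 37.0, 31.4, and 39.4 CPM. All 13 thalamic libraries were above all 4 cortical ones, every dLG library was above every VPM library, and 1 MGv library (c) fell within the range of the VPM. The log2FC over the cortex was 1.73 for the thalamus (SE 0.26, adjusted p = 0.000196, edgeR), 2.00 for the dLG, 1.82 for the MGv, and 1.14 for the VPM. Between nuclei, dLG over VPM (log2FC 0.86, SE 0.21, adjusted p = 0.0196, edgeR) and MGv over VPM (log2FC 0.68, SE 0.21, adjusted p = 0.0553, edgeR) passed, and dLG over MGv did not (log2FC 0.19, 95% interval -0.21 to 0.58). MGv over VPM was lost without MGv replicate a or VPM replicate a or c (adjusted p of 0.128 to 0.149, edgeR). The antisense gene *Prox1os* had its highest means in the same nuclei, 3.66 ± 1.27 CPM in the dLG (SD of 5 libraries) and 3.01 ± 0.88 CPM in the MGv (SD of 4 libraries), against 0.43 ± 0.31 CPM in the cortex (SD of 4 libraries).

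The nuclear receptor genes *Nr2f1* and *Nr2f2*, also known as COUP-TFI and COUP-TFII, encode orphan receptors that set up area identity in the forebrain. *Nr2f2* (chromosome 7, 70351944 to 70366735) was low in the cortex, at 2.72, 1.03, 0.25, and 1.21 CPM. In the dLG it was at 75.7, 87.8, 93.0, 75.5, and 142 CPM, in the MGv at 92.9, 118, 98.0, and 92.4 CPM, and in the VPM at 56.8, 64.9, 49.7, and 50.0 CPM. The lowest thalamic library held 49.7 CPM and the highest cortical one 2.72 CPM, and the VPM libraries were all below those of the other nuclei. The log2FC over the cortex was 5.91 for the thalamus (SE 0.46, adjusted p = 3.3e-08, edgeR), 6.06 for the dLG, 5.28 for the VPM, and 6.14 for the MGv. MGv over VPM passed (log2FC 0.86, SE 0.31, adjusted p = 0.0870, edgeR), whereas dLG over VPM, of similar size, did not (log2FC 0.78, SE 0.30, adjusted p = 0.111, edgeR). Both values lay near the threshold. MGv over VPM was lost when any 1 of 8 libraries was left out, cortex replicate b, dLG replicate b, MGv replicates b, c, and d, and VPM replicates a, c, and d (adjusted p of 0.104 to 0.176, edgeR), and dLG over VPM passed with DESeq2 (adjusted p = 0.0456) and in the fit of the nuclei alone (adjusted p = 0.0300, edgeR). It also passed without cortex replicate a or c, dLG replicate d, or MGv replicate b (adjusted p of 0.0353 to 0.0875, edgeR). The antisense gene *B130024G19Rik*, which begins beside *Nr2f2*, had no counts in the cortex and was at 9.33 ± 2.58 CPM in the MGv (SD of 4 libraries), 5.86 ± 2.67 CPM in the dLG (SD of 5 libraries), and 4.501 ± 1.45 CPM in the VPM (SD of 4 libraries).

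*Nr2f1* (chromosome 13, 78188973 to 78199757) was detected in all groups and varied widely within them. It had 62.4, 49.9, 87.3, and 40.0 CPM in the cortex, compared with 50.3, 87.3, 58.7, and 45.0 CPM in the VPM. The dLG libraries ranged over 98.5, 141, 150.4, 77.6, and 252 CPM and the MGv libraries over 105, 224, 74.1, and 96.9 CPM. The cortex and the VPM covered nearly the same range, the dLG and the MGv reached higher, and each pair of groups overlapped. The difference between thalamus and cortex did not pass with edgeR (log2FC 0.91, SE 0.39, adjusted p = 0.181), but did with DESeq2 (log2FC 0.93, adjusted p = 0.0754). The difference from the cortex passed for the dLG (log2FC 1.26, SE 0.35, adjusted p = 0.0219, edgeR) and the MGv (log2FC 1.06, SE 0.36, adjusted p = 0.0689, edgeR). The VPM was level with the cortex (log2FC 0.01, 95% interval -0.69 to 0.71). The dLG and the MGv were also above the VPM, with log2FC of 1.25 (adjusted p = 0.0369, edgeR) and 1.05 (adjusted p = 0.0747, edgeR). Without MGv replicate b, the library with 224 CPM, the MGv no longer passed against the cortex (log2FC 0.66, adjusted p = 0.297) or the VPM (log2FC 0.66, adjusted p = 0.286). The call against the cortex was also lost without cortex replicate a, b, or d (adjusted p of 0.130 to 0.177, edgeR) and that against the VPM without VPM replicate a, c, or d (0.147 to 0.173), while dLG over VPM was lost without VPM replicate a or d (0.105 and 0.106).

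*Rorb*, a nuclear receptor gene that marks sensory relay neurons and their target layer in the cortex (chromosome 19, 18930605 to 19111196), was highest in the cortex, by a small margin. The cortical libraries were at 127, 119, 89.0, and 103 CPM and those of the dLG at 65.5, 76.5, 92.4, 60.8, and 68.3 CPM. The VPM was at 73.4, 90.4, 73.0, and 78.6 CPM and the MGv at 116, 67.5, 84.7, and 87.4 CPM. The ranges of all groups overlapped, except that 3 of the 4 cortical libraries were above every dLG and VPM library. Of the differences from the cortex, those of the thalamus (log2FC -0.46, SE 0.14, adjusted p = 0.0460, edgeR) and the dLG (log2FC -0.59, SE 0.16, adjusted p = 0.0180, edgeR) passed, and those of the VPM (log2FC -0.47, adjusted p = 0.111, edgeR) and the MGv (log2FC -0.30, adjusted p = 0.275, edgeR) did not. For the thalamus, leaving out cortex replicate a, b, or d raised the adjusted p to between 0.128 and 0.194, and the VPM passed without any 1 of 6 libraries, cortex replicate c, dLG replicates c and e, MGv replicates a and b, and VPM replicate b (0.0605 to 0.0964). No pair of nuclei passed, with log2FC between -0.29 and 0.17.

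The forkhead genes *Foxp1* and *Foxp2* encode related repressors that act in projection neurons of the cortex, striatum, and thalamus. *Foxp1* (chromosome 6, 98925338 to 99522721) had 33.3, 43.8, 30.6, and 30.9 CPM in the cortex, compared with 13.9, 14.2, 14.0, and 14.4 CPM in the VPM. The dLG libraries were at 18.9, 28.2, 23.8, 20.5, and 30.9 CPM and the MGv libraries at 16.1, 20.4, 14.8, and 17.6 CPM. The 4 VPM libraries were the lowest of all 17 and differed by a factor of 1.04, whereas the dLG reached into the cortical range with 1 library. *Foxp1* was lower than in the cortex in the thalamus (log2FC -0.86, SE 0.20, adjusted p = 0.00877, edgeR), in the VPM (log2FC -1.29), in the MGv (log2FC -1.01), and in the dLG (log2FC -0.50, adjusted p = 0.0571, edgeR). The dLG no longer passed without cortex replicate b (log2FC -0.37, adjusted p = 0.229, edgeR) or dLG replicate a (log2FC -0.42, adjusted p = 0.122, edgeR), nor with the neuron marker level as a covariate (adjusted p = 0.129, edgeR). Between nuclei only dLG over VPM passed (log2FC 0.79, SE 0.17, adjusted p = 0.0129, edgeR).

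*Foxp2*, known for its part in circuits of vocal learning (chromosome 6, 14901349 to 15441977), was higher in the MGv than in each of the other groups. The MGv libraries were at 87.4, 28.1, 26.4, and 62.3 CPM. The cortex was at 16.3, 16.2, 13.7, and 14.6 CPM, the dLG at 15.3, 19.6, 12.8, 12.7, and 13.3 CPM, and the VPM at 13.0, 9.42, 17.9, and 10.7 CPM. Every MGv library was above all 13 others, which overlapped with each other. The MGv passed against the cortex (log2FC 1.75, SE 0.32, adjusted p = 0.00123, edgeR) and the VPM (log2FC 2.00, SE 0.32, adjusted p = 0.00107, edgeR), and the log2FC of dLG over MGv was -1.79 (SE 0.29, adjusted p = 0.00331, edgeR). The cortex, dLG, and VPM, with means of 15.2, 14.7, and 12.7 CPM, did not differ beyond their spread, and the thalamus as a whole did not pass against the cortex (log2FC 0.73, 95% interval -0.27 to 1.74).

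*Etv1*, an ETS family gene that marks certain projection neurons (chromosome 12, 38779380 to 38870484), was close to the same level in all groups. Its mean was 58.1 ± 7.17 CPM in the cortex (SD of 4 libraries), 60.2 ± 8.64 CPM in the dLG (SD of 5 libraries), 60.3 ± 1.56 CPM in the VPM (SD of 4 libraries), and 55.8 ± 5.13 CPM in the MGv (SD of 4 libraries). The 17 libraries lay between 48.7 and 70.2 CPM and all groups overlapped. None of the 7 comparisons passed with edgeR or DESeq2 or had an unadjusted p under 0.05, and the 95% interval of the log2FC of thalamus over cortex was -0.19 to 0.23. This level includes any reads that the authors' counting gave to *Etv1* rather than to related sequences, which 9.08% of its 50-base windows match.

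Taking each nucleus against the cortex, 5 of the 10 genes were higher and 3 lower in the dLG, 4 were higher and 2 lower in the VPM, and 6 were higher and 2 lower in the MGv (adjusted p under 0.1, edgeR). Over all 17856 genes, the shares were 10.3% higher and 9.04% lower in the dLG, 3.56% and 5.44% in the VPM, and 7.87% and 7.51% in the MGv. The 3 comparisons share the cortical libraries, so their results are given side by side and not as independent of each other. *Gbx2*, *Lhx9*, *Prox1*, and *Nr2f2* were higher and *Lhx2* and *Foxp1* were lower in each of the nuclei, of which *Foxp1* in the dLG and *Gbx2* in the VPM depended on single libraries. *Nr2f1* was added in the dLG and MGv, *Foxp2* in the MGv, and *Rorb*, which was lower, in the dLG. In the VPM, *Rorb* lay near the threshold (log2FC -0.47, adjusted p = 0.111, edgeR) and passed with DESeq2 (adjusted p = 0.0679). The median log2FC over the 10 genes was 0.66 for the dLG, 0.03 for the VPM, and 1.40 for the MGv, whereas over all genes it was between -0.01 and 0.03.

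**Figure D2:**
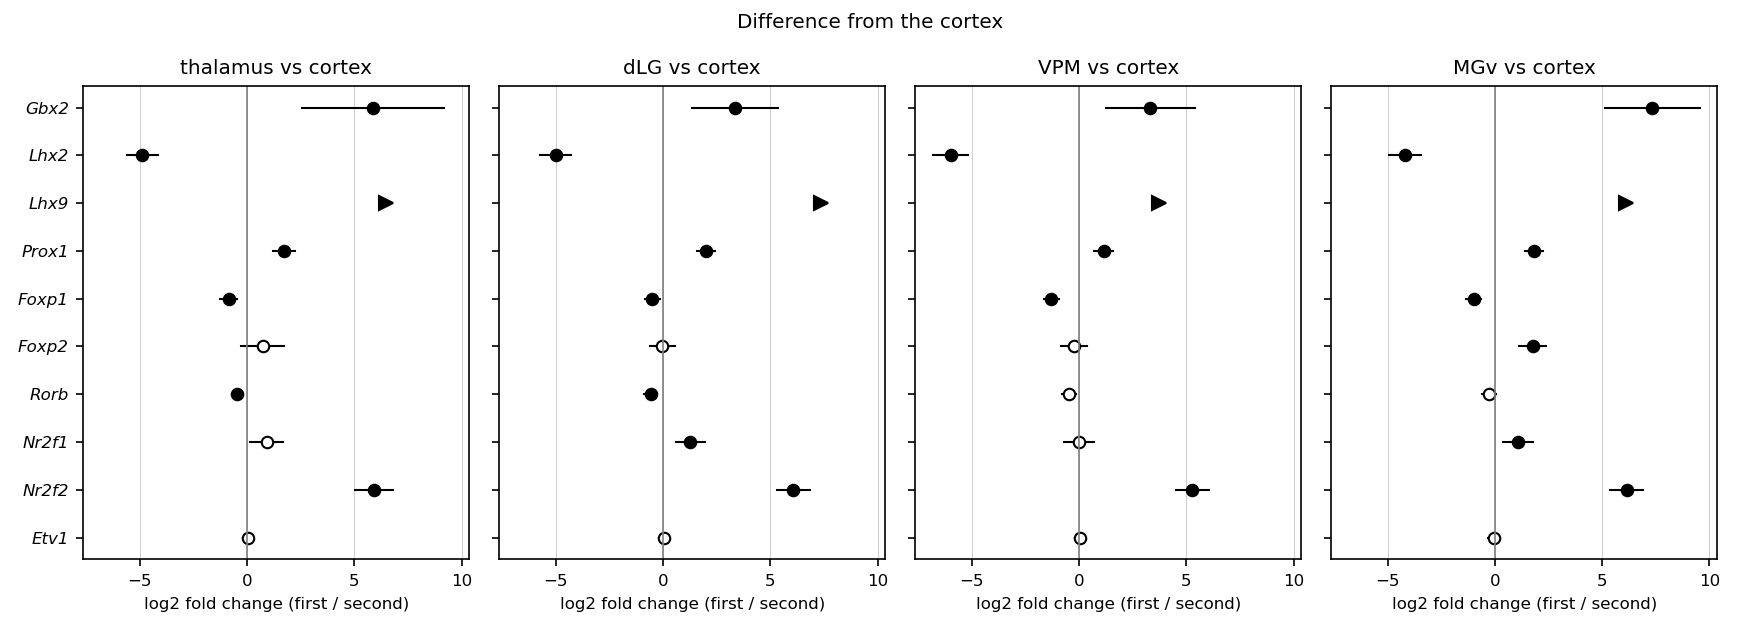
Log2 fold change of each gene over the cortex (x axis) for the thalamus, dLG, VPM, and MGv, with 95% intervals, filled where the adjusted p was under 0.1. Triangles for *Lhx9*, which had no cortical counts, mark lower bounds from a floor of 3 counts. *Lhx2* is the only gene more than 4 log2 units below the cortex, in all panels.

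Among the nuclei, 5 of the 10 genes were higher in the dLG than in the VPM and none was lower, where 7.93% of all genes were higher and 5.76% were lower (edgeR). None was lower with DESeq2 or at an unadjusted p under 0.05 either. In the MGv, 7 were higher than in the VPM and none was lower, against 7.97% and 7.4% of all genes, and again none was lower with DESeq2 or at an unadjusted p under 0.05. The 5 of the dLG were *Lhx2*, *Lhx9*, *Prox1*, *Foxp1*, and *Nr2f1*, and the 7 of the MGv were *Gbx2*, *Lhx2*, *Lhx9*, *Prox1*, *Nr2f1*, *Nr2f2*, and *Foxp2*. In the fit of the nuclei alone, *Lhx2* did not pass for dLG over VPM (adjusted p = 0.166, edgeR) and *Nr2f2* did (adjusted p = 0.0300, edgeR). Between the dLG and the MGv, 2 genes, *Gbx2* and *Foxp2*, were lower in the dLG and none was higher, where 0.571% of all genes were higher and 0.454% lower (edgeR). At an unadjusted p under 0.05, 2 were higher in the dLG, and with DESeq2 0 were. The VPM held the lowest mean of 8 of the 10 genes among the nuclei, the exceptions being *Rorb* (lowest in the dLG) and *Etv1* (lowest in the MGv). Markers of several cell types also differed between nuclei. The 5 microglia markers, present in these fractions at low levels, were all higher in the dLG than in the VPM, and 2 of them were higher in the MGv than in the VPM (5 with DESeq2). Their sums were 9.65 to 84.0 CPM in the dLG, 6.11 to 10.1 CPM in the VPM, and 10.3 to 49.8 CPM in the MGv. Of the 4 GABAergic neuron markers, *Gad2* and *Slc32a1* were higher in the dLG than in the VPM, *Gad2* at 6.83 ± 3.29 CPM (SD of 5 libraries) against 0.36 ± 0.22 CPM (SD of 4 libraries). Of the 8 astrocyte markers, 3 were higher and 1 lower in the dLG than in the VPM, and 2 were higher and 1 lower in the MGv than in the VPM, *Gfap* being among the higher ones in both. Of the 10 neuron markers, *Nefl* and *Nefm* were lower in the MGv than in the VPM, and none passed between the dLG and the VPM with edgeR, where 3 were higher at an unadjusted p under 0.05 and 2 with DESeq2. The part of these markers in the differences was not tested. Without VPM replicate a or d, the count for dLG over VPM was 3, and without VPM replicate a or c, that for MGv over VPM was 4.

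**Figure D3:**
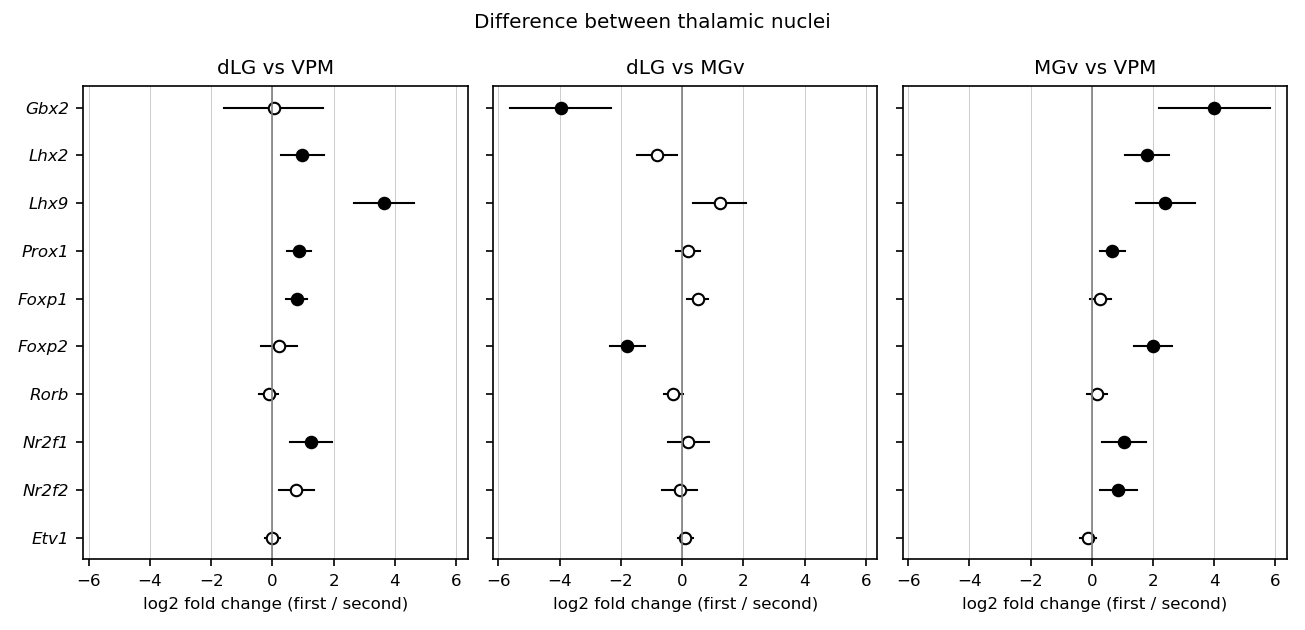
Log2 fold change of each gene between pairs of nuclei (x axis, first over second nucleus), with 95% intervals, filled where the adjusted p was under 0.1. *Gbx2* and *Foxp2* are the filled points of the middle panel, and all filled points of the comparisons with the VPM lie above 0.

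Levels of different genes were compared per kilobase (kb) of exonic length. In the cortex, *Lhx2* was at 52.6 ± 2.69 CPM per kb (SD of 4 libraries), the highest level of the 10, followed by *Nr2f1* at 11.8 ± 4.01 and *Rorb* at 9.88 ± 1.51 CPM per kb. In the dLG and MGv, *Nr2f1* was highest, at 28.3 ± 13.3 CPM per kb (SD of 5 libraries) and 24.5 ± 13.2 CPM per kb (SD of 4 libraries), with *Nr2f2* next at 10.99 ± 3.18 and 11.6 ± 1.42 CPM per kb. In the VPM, *Nr2f1* led at 11.8 ± 3.70 CPM per kb, followed by *Rorb* at 7.12 ± 0.73 CPM per kb, ahead of *Nr2f2* at 6.42 ± 0.83 CPM per kb (SD of 4 libraries). *Gbx2* reached 7.66 ± 4.61 CPM per kb in the MGv (SD of 4 libraries) and at most 0.49 CPM per kb elsewhere. These per-length levels use the union of annotated exons, and the isoforms in these cells were not measured here.

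**Figure D4:**
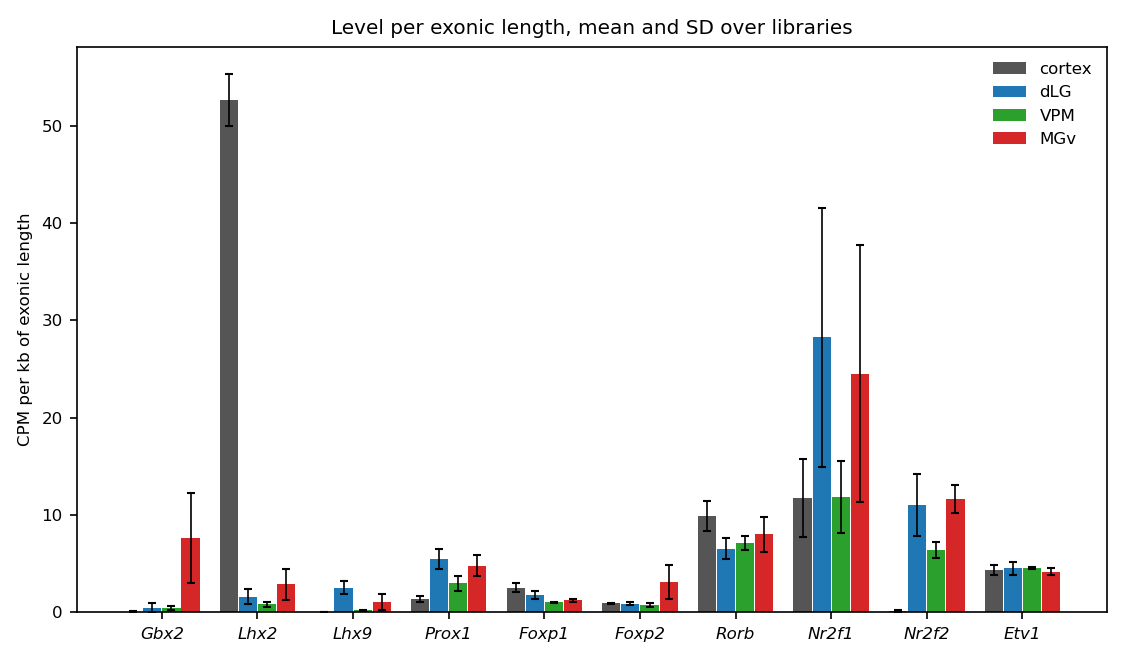
Mean CPM per kb of exonic length (y axis) of each gene in the cortex, dLG, VPM, and MGv, with error bars of 1 SD over the 4 or 5 libraries. *Lhx2* in the cortex, at 52.6, is the tallest bar, and *Nr2f1* leads in each nucleus.

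The summed level of the 10 neuron markers ranged from 1126 to 1380 CPM in the cortex, 1454 to 1768 CPM in the dLG, 873 to 1870 CPM in the VPM, and 819 to 2158 CPM in the MGv, so that it varied most within the MGv. Their mean log2(CPM + 0.5) was 7.33 and 6.99 in MGv replicates a and d and 5.75 and 5.80 in replicates b and c. *Gbx2*, *Lhx2*, *Lhx9*, *Foxp2*, *Prox1*, and *Rorb* were each higher in both MGv replicates a and d than in both b and c, with *Foxp2* at 87.4 and 62.3 CPM in replicates a and d and at 28.1 and 26.4 CPM in b and c. Over the 17 libraries, with both values centred within the 4 groups, Pearson's r was 0.83 for *Lhx9*, 0.75 for *Foxp2*, and 0.73 for *Lhx2* (permutation p = 0.0176, 0.0933, and 0.0296 within groups). Adjusted over the 10 relations computed, these were 0.148, 0.233, and 0.148. Spearman's rho was 0.89 for *Lhx9*, the only relation whose adjusted p was under 0.1 (permutation p = 0.00154, adjusted p = 0.0154), 0.54 for *Foxp2* (permutation p = 0.132, adjusted p = 0.330), and 0.63 for *Lhx2* (permutation p = 0.0530, adjusted p = 0.265). Without the 2 libraries farthest from the median marker level, MGv replicates b and c, r was 0.58 for *Lhx9*, 0.28 for *Foxp2*, and 0.44 for *Lhx2*. Each of these was lower than over the 17 libraries, and none was tested. Within the largest library number series (10 libraries, MGv replicates b and c among them), r was 0.85, 0.79, and 0.86. It was about as high for *Rorb* (0.80) and *Prox1* (0.78), followed by *Gbx2* (0.63).

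For *Gbx2*, r was 0.39 and rho 0.39 (permutation p = 0.163 and 0.169, adjusted p = 0.303 and 0.335), and r was 0.02 without those 2 libraries. The r of the other 6 genes was between -0.40 (*Nr2f1*) and 0.39 (*Rorb*), with adjusted permutation p of at least 0.186. *Nr2f2* had an r of -0.25. With the neuron marker level as a covariate, 7 members still passed in the comparison of thalamus and cortex, 4 higher and 3 lower. In the other comparisons the covariate ended 4 calls, *Gbx2* in the dLG and in the VPM over the cortex (adjusted p = 0.117 and 0.135, edgeR), *Foxp1* in the dLG over the cortex (0.129), and *Lhx2* in the dLG over the VPM (0.137). It brought 3 others under the threshold, *Lhx2* in the dLG against the MGv (0.0591), *Nr2f2* in the dLG over the VPM (0.0713), and *Rorb* in the VPM over the cortex (0.0665). The part of neuronal RNA in the levels of the 10 genes was not tested beyond these values.

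**Figure D5:**
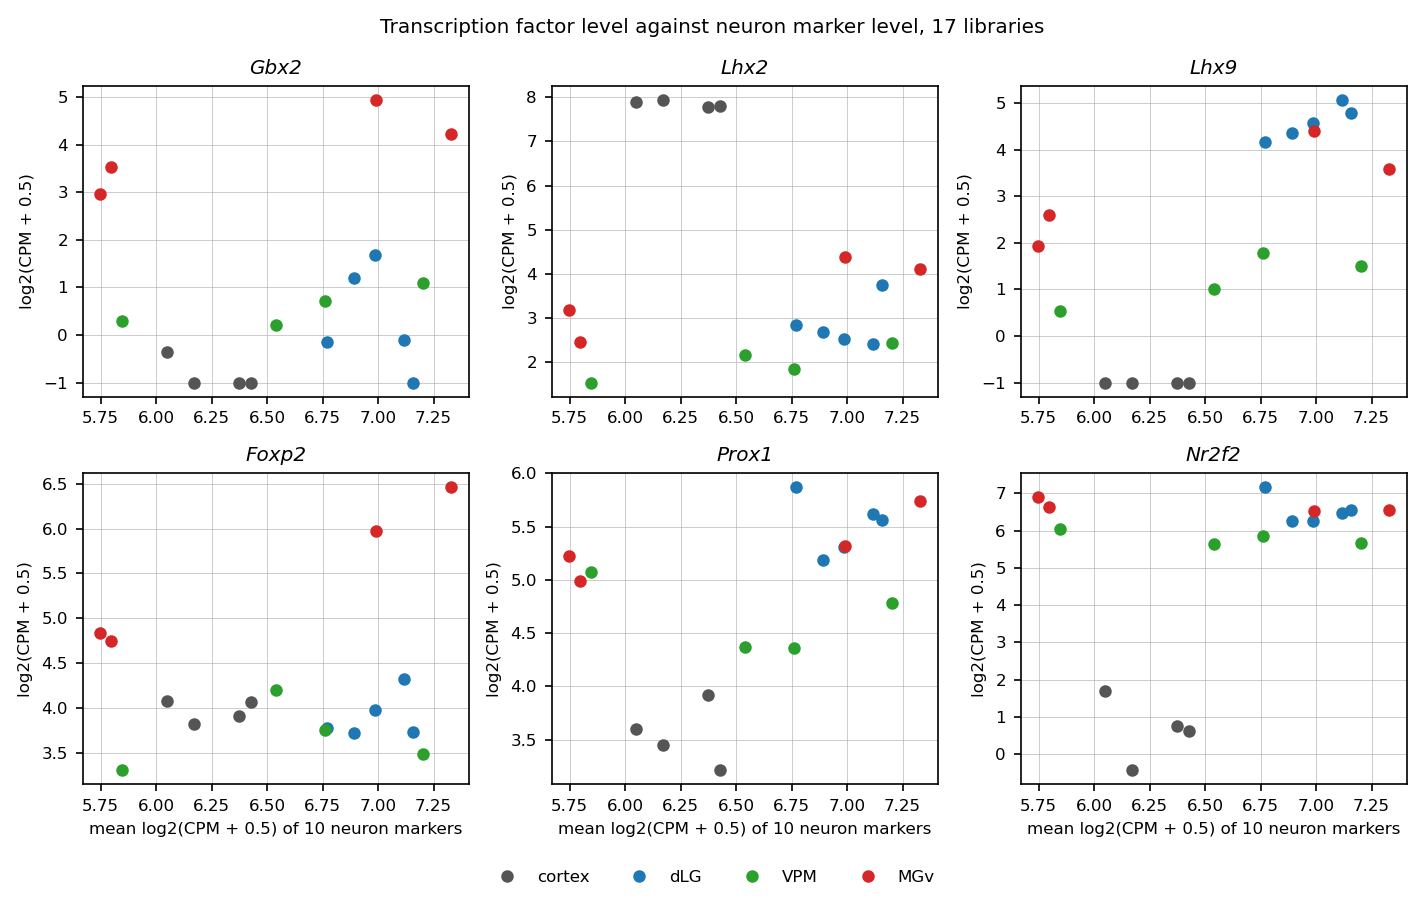
Level of 6 of the genes as log2(CPM + 0.5) (y axis) against the mean log2(CPM + 0.5) of 10 neuron markers (x axis) in the 17 libraries, coloured by group. Within the MGv, *Gbx2*, *Lhx2*, *Lhx9*, *Foxp2*, and *Prox1* are higher in both libraries at 7.33 and 6.99 on the x axis than in both at 5.75 and 5.80, and *Nr2f2* is lower.

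The library numbers in the sample labels fall into 3 series, and the differences from the cortex were computed again within the 2 series that hold cortical libraries. In the larger one (2 cortical and 8 thalamic libraries), 4 members passed between thalamus and cortex, *Nr2f2* (log2FC 6.83), *Lhx2* (log2FC -4.72), *Prox1* (log2FC 1.57), and *Lhx9*, which had no cortical counts, where 1.86% of all genes were higher and 3.14% lower. In the other series (2 cortical and 4 thalamic libraries, none of the MGv), *Nr2f2* (log2FC 5.46) and *Lhx2* (log2FC -5.64) passed, where 0.718% of all genes were higher and 1.37% lower. *Foxp1* was lower in the thalamus in both, with log2FC of -0.76 (adjusted p = 0.132, edgeR) and -0.93 (adjusted p = 0.436, edgeR), and *Rorb* with log2FC of -0.24 and -0.73. *Gbx2* did not pass in either (adjusted p = 0.120 and 0.548, edgeR). All 4 MGv libraries belong to the larger series, and within it *Gbx2* and *Foxp2* still passed for MGv over VPM (log2FC 3.90 and 1.87, adjusted p = 0.0282 and 0.0452, edgeR), whereas for dLG over MGv neither did (log2FC -3.40 and -1.55, adjusted p = 0.221 and 0.457, edgeR).

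Other transcription factor genes of thalamic development were more often higher than lower in the thalamus. This list and the lists below were chosen with earlier results of these data known, so their counts are given as a description. Of 15 in the list, 13 were tested, and 6 of them were higher and none lower in the thalamus (median log2FC 1.01, edgeR), against 5.45% and 5.93% of all genes. At an unadjusted p under 0.05, 1 was lower, and with DESeq2 0 were. *Barhl2*, a homeobox gene, had no counts in the cortex and a thalamic mean of 6.06 ± 4.16 CPM (SD of 13 libraries), at least 40.8-fold higher (adjusted p = 2.0e-05, edgeR). *Tcf7l2*, the Wnt effector that marks the thalamus, was at 334 ± 130.3 CPM in the thalamus (SD of 13 libraries) and 76.2 ± 4.06 CPM in the cortex (SD of 4 libraries), giving a log2FC of 2.13 (SE 0.28, adjusted p = 3.0e-05, edgeR). *Rora*, the closest relative of *Rorb*, went the other way from it, with a log2FC of 1.01 (SE 0.20, adjusted p = 0.00295, edgeR). *Pou2f2* had its highest mean in the dLG, 24.9 ± 3.50 CPM (SD of 5 libraries), as *Lhx9* did.

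Among 20 paralogs of the members, 15 had counts and 9 were tested, of which 2 were higher (*Rora* and *Foxp4*) and 2 lower (*Nr2e1* and *Lhx6*) in the thalamus, where 5.45% of all genes were higher and 5.93% lower. *Foxp4*, unlike *Foxp1*, was higher there (log2FC 0.79, SE 0.19, adjusted p = 0.0108, edgeR). *Nr2e1*, an orphan receptor gene of neural progenitors in the same subfamily as *Nr2f1* and *Nr2f2*, was at 137 ± 12.8 CPM in the cortex (SD of 4 libraries) and 44.0 ± 9.30 CPM in the thalamus (SD of 13 libraries), giving a log2FC of -1.64 (adjusted p = 2.3e-07, edgeR). *Lhx6*, a marker of cortical interneurons, was at 3.53 ± 2.03 CPM in the cortex (SD of 4 libraries) and at most 0.14 CPM in a nucleus. Of 13 cofactors of LIM-homeodomain proteins and nuclear receptors, all tested, 2 were higher (*Lmo2* and *Ldb2*) and 2 lower (*Lmo3* and *Bcl11a*). *Ldb2*, the partner of LIM domains, had a log2FC of 0.82 (SE 0.20, adjusted p = 0.0122, edgeR) and *Lmo3*, which competes for such partners, one of -0.69 (SE 0.14, adjusted p = 0.00276, edgeR).

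Genes of thalamocortical neurons that are not transcription factors were measured beside them. Of 12, all tested, 6 were higher and 2 lower in the thalamus (median log2FC 0.92, edgeR), against the same 5.45% and 5.93% of all genes, with which the marker counts that follow also compare. *Slc17a6*, the vesicular glutamate transporter of thalamic neurons, was at 83.3 ± 37.6 CPM in the thalamus (SD of 13 libraries) and 10.3 ± 4.23 CPM in the cortex (SD of 4 libraries), and *Slc6a4*, the serotonin transporter, was at 42.1 ± 28.3 and 0.58 ± 0.62 CPM. Of the 10 neuron markers, 3 were higher and 1 was lower in the thalamus, and of the 8 astrocyte markers none was higher, also at an unadjusted p under 0.05 and with DESeq2, and 3 were lower. Of 4 cycling cell markers, 3 were higher. None of 4 GABAergic neuron, 7 oligodendrocyte lineage, and 5 microglia markers passed (edgeR, with 1, 0, and 1 at an unadjusted p under 0.05 and as many with DESeq2), while 1 of 5 endothelial and mural markers and 1 of the 2 ependymal markers tested were lower.

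The genes most like each member over the 17 libraries, by Pearson's r of log2(CPM + 0.5) among 17856 genes, are given as a description, since the 4 groups set most of these correlations. For *Gbx2* they were *Nts* (r = 0.92), *Crabp2* (0.92), and *Kdf1* (0.92), and for *Foxp2* *Gm20063* (0.92), *Pth2r* (0.92), and *Nmbr* (0.88). For *Lhx2* they were *Neurod6* (0.96), *Mpped1* (0.96), and *Neurod2* (0.96), and for *Lhx9* *Pou2f2* (0.96), *Rgs8* (0.94), and *Cpne7* (0.94). *Nr2f2* was nearest to *Irx2* (0.98), *Otx2* (0.98), and *Foxb1* (0.98), and *Foxb1* (0.94) was also among the 3 nearest to *Prox1*, with *Nrxn3* (0.94) and *Peg3* (0.93). *Nr2f1* was nearest to *Stox2* (0.97), *Bptf* (0.97), and *Ctdsp1* (0.97), and *Foxp1* to *Baiap2* (0.91), *Dkk2* (0.90), and *Slc30a3* (0.90). The highest values were lower for *Rorb*, with *Esyt3* (0.83), *Pamr1* (0.80), and *Tspan5* (0.80), and for *Etv1*, with *Rtl5* (0.82), *Nudt21* (0.81), and *9330158H04Rik* (0.77). *Neurod6* had 31.4 CPM in the cortex, and at most 0.63 CPM in a nucleus, and *Nts* was at 15.9 CPM in the MGv and at most 0.15 CPM elsewhere.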

How the data were processed

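Libraries of FACS-purified P7 *Gfap::GFP* astrocytes were sequenced by the study in 1 flow cell as single reads of 50 bases. The authors trimmed adapters, mapped reads to GRCm38 (mm10) with STAR (2.7.0d), processed alignments with SAMtools (1.9), counted them on Ensembl genes with featureCounts of Subread (1.6.4), and deposited raw counts per gene for each library, without normalization. Every listed gene holds at least 10 counts over the 17 libraries. Strand use in counting is not given in the sources used here, so reads of antisense genes may be included.

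From these counts, CPM were computed with TMM factors in edgeR (4.0.16). Genes were filtered with filterByExpr, and thalamus and cortex were compared as 2 groups, the pairs of groups in a fit of 4 groups, with edgeR's robust quasi-likelihood test and BH adjustment over 17856 genes. Depth was 18213687 to 50366363 counts per library. The SE of a log2FC was taken as its absolute value over the root of *F*, and 95% intervals are 1.96 SE on each side. A fold against a group at 0 uses a floor of 3 counts per library. Gene models and exonic lengths are from GENCODE vM21 (GRCm38), to which 26548 of 26556 identifiers were matched, and promoter windows from RefSeq.

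All 10 members are named, with the 3 genes most like each and at most 4 genes with the lowest p from each list of related genes or markers. Members and lists were chosen with earlier results of these data known. Groups come from the sample labels. The replicate letters were not used to pair libraries, since the sources used here do not say whether same-letter libraries share brains. Deviations of same-letter libraries from their group means had correlations of -0.17 to 0.27 (6 of 24 above 0.1). For other letters they were -0.45 to 0.35 (19 of 84 above 0.1). These correlations cannot show whether brains were shared. Relations to neuron markers used log2(CPM + 0.5), permutation tests within groups (100000 resamples) and BH adjustment over 10 relations.

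Alternatives were DESeq2 (1.42.0), its size factors in edgeR, an adjusted p under 0.05, no filter, a minimum of 10 counts in each library, a block for the replicate letter, a covariate for the library number series or the neuron marker level, other groups in the fit, and each library left out. Fits within 1 library number series were added after the data were seen. The fits were tested on simulated data. R 4.3.3 and Python 3.11.15 were used.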

Additional observations from a re-analysis of the deposited data

Results flagged for a closer look

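In 39 groups of 4 or 5 libraries, 1 for each gene and group with any spread, the highest or lowest library stood apart by Dixon's test at the 95% level in 3, where about 1 in 20 is flagged by chance. *Gbx2* in cortex replicate a, at 0.2807 CPM (13 counts), stood above the other 3 cortical libraries, which had none. *Lhx2* in dLG replicate c, at 12.89 CPM, stood above the other dLG libraries, which lay between 4.78 and 6.71 CPM. That library had counts for the fewest genes (17749) and is the only member of its library number series. The part of this in its *Lhx2* level was not tested. *Nr2f2* in dLG replicate e, at 142 CPM, stood above the other dLG libraries, which lay between 75.5 and 93.0 CPM.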

How the results depend on the processing

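The number of the 10 genes that passed stayed within 1.5 times of its main value in most settings, with these exceptions. With at least 10 counts in every library, *Gbx2*, *Lhx9*, and *Nr2f2* were not tested, and the counts were 4 (thalamus over cortex), 5 (dLG over cortex), 5 (MGv over cortex), 1 (dLG over MGv), and 4 (MGv over VPM). At an adjusted p under 0.05, MGv over VPM gave 4. Within the larger library number series, counts were 4 (thalamus over cortex), 5 (dLG over cortex), 1 (dLG over VPM), and 0 (dLG over MGv). Within the other series they were 2 (thalamus over cortex), 4 (dLG over cortex), 3 (VPM over cortex), and 0 (dLG over VPM), where libraries are fewer. With 1 library left out, counts ranged from 5 to 7 (thalamus over cortex), 7 to 8 (dLG over cortex), 5 to 7 (VPM over cortex), 7 to 8 (MGv over cortex), 3 to 6 (dLG over VPM), 2 to 2 (dLG over MGv, where *Lhx9* took the place of *Gbx2* without MGv replicate d), and 4 to 7 (MGv over VPM). With the replicate letter as a block, 7 passed between thalamus and cortex, as without it. The sources used here do not say whether the letters pair the libraries.

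No gene that passed in a comparison changed direction in any setting. The changes of direction were all in log2FC that had not passed, and their causes were not tested. *Foxp2* was at -0.41 between thalamus and cortex in the smaller series, at 0.0010 (replicate block) and 0.32 (larger series) between dLG and cortex, and at -0.12 between dLG and VPM with the neuron marker covariate. *Nr2f1* between VPM and cortex was at -0.00041 (DESeq2), -0.000876 (DESeq2's size factors), -0.014 (no filter), -0.000632 (at least 10 counts), -0.031 (replicate block), -0.014 (series covariate), and -0.31 (larger series), and between dLG and MGv at -0.078 (replicate block) and -0.061 (larger series). *Etv1* was at -0.0084 (thalamus over cortex) and -0.057 (VPM over cortex) in the smaller series, and at 0.020 (series covariate) and 0.11 (larger series) for MGv over cortex. For dLG over VPM it was at 0.039 (DESeq2, and its size factors), 0.050 (no filter), 0.047 (at least 10 counts, and the series covariate), 0.027 (nuclei alone), 0.074 (larger series), and 0.096 (smaller series). *Gbx2* between dLG and VPM was at -0.28 (replicate block) and -0.15 (neuron marker covariate), and *Nr2f2* between dLG and MGv at 0.062 (neuron marker covariate). With 1 library left out, *Etv1* ranged from -0.017 to 0.078 (thalamus over cortex), -0.011 to 0.11 (dLG over cortex), -0.012 to 0.11 (VPM over cortex), -0.080 to 0.031 (MGv over cortex), and -0.064 to 0.051 (dLG over VPM), *Foxp2* from -0.17 to 0.021 (dLG over cortex), *Nr2f1* from -0.22 to 0.24 (VPM over cortex) and -0.10 to 0.64 (dLG over MGv), and *Gbx2* from -0.66 to 0.39 (dLG over VPM).

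Low counts limit *Gbx2* in the cortex, dLG, and VPM, *Lhx9* in the cortex, and *Nr2f2* in the cortex, where its lowest library held 5 counts.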

Other observations

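The lists of related genes were also compared between the nuclei. Of the 13 other transcription factor genes of thalamic development that were tested, 7 were higher in the dLG than in the VPM and 5 were higher in the MGv than in the VPM, with none lower in either (edgeR, adjusted p under 0.1). At an unadjusted p under 0.05, and likewise with DESeq2, 0 were lower in the dLG and 1 was lower in the MGv. The shares over all genes were 7.93% higher and 5.76% lower for the dLG, and 7.97% and 7.4% for the MGv. *Tcf7l2*, the Wnt effector of the thalamus, was at 340 ± 57.3 CPM in the dLG (SD of 5 libraries), 227 ± 27.5 CPM in the VPM (SD of 4 libraries), and 433 ± 186 CPM in the MGv (SD of 4 libraries). *Barhl2* was highest in the dLG, at 9.29 ± 4.88 CPM (SD of 5 libraries). Its mean was higher in the VPM, at 5.61 ± 0.86 CPM (SD of 4 libraries), than in the MGv, at 2.47 ± 1.38 CPM (SD of 4 libraries).

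Of the 12 thalamocortical neuron genes, 6 were higher in the dLG and 5 in the MGv than in the VPM, and none was lower, also with DESeq2 and at an unadjusted p under 0.05 (edgeR). *Robo1*, an axon guidance receptor gene, was at 127 ± 8.98 CPM in the MGv (SD of 4 libraries) and 62.1 ± 9.71 CPM in the VPM (SD of 4 libraries).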
